A study of Mus musculus with 8 samples.

Results

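The miR-379 cluster is a run of microRNA genes on mouse chromosome 12, in the distal part of the imprinted Dlk1-Dio3 domain. Its members were taken from the deposited microRNA table by name: 26 microRNA numbers were looked for, all arms and letter variants included, and 25 of them had a row. They gave 50 rows of the 2395 in the table, from 26 precursors; miR-654 had no row. The rule itself names microRNAs and uses no measured value, although it was written with earlier results of these data known. The remaining microRNAs of the distal cluster, such as the miR-376 family, miR-381, miR-409 and miR-410, were not members and serve below as neighbours.

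The embryos carried, or lacked, 3 polyadenylation cassettes placed by Easi-CRISPR into the promoter of Gtl2 (also named Meg3), the long non-coding RNA gene at the start of the maternally expressed part of the domain. The groups were wild-type embryos without the insertion (WT), embryos with it on the paternal chromosome (PKI), on the maternal chromosome (MKI) and on both (HOMO). The insertion is inherited, so no cell type restricts it; the labels leave strain, sex and the number of embryos per library unstated. The series design gives embryonic day 12.5 for all, whereas the sample titles of PKI, MKI and HOMO each carry a day number slightly above that of WT. The labels hold 8 libraries, 2 per genotype, but each table has a single column per genotype, and nothing states how the libraries were combined. There was therefore no spread between replicates and no test of any difference between genotypes: intervals below cover counting error only, and each comparison is one of 2 columns.

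In an imprinted domain, the allele that is read depends on the parent it came from. On the maternal chromosome Gtl2, Rian and Mirg are transcribed together with the small RNAs between them, while Dlk1, Rtl1 and Dio3 are read from the paternal chromosome. A microRNA is cut from a long transcript as a hairpin by Drosha and Dgcr8, trimmed by Dicer1 to a short duplex, and loaded as a single strand into an Argonaute protein. The strand comes from the 5′ arm (5p) or the 3′ arm (3p) of the hairpin, and its bases 2 to 8, the seed, are the main part that pairs with messenger RNAs. The miR-379 cluster is known from the brain, where its transcription responds to neuronal activity and where miR-134, for example, limits the growth of dendritic spines.

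By RefSeq positions on GRCm38.p6, the cluster ran over 31.517 kb, from the miR-379 hairpin at chr12:109709060-109709125 to the miR-377 hairpin at chr12:109740510-109740577. It lies beyond Rian (chr12:109603945-109661716) and well past Gtl2 (chr12:109540996-109571729). Only miR-154, miR-496a and miR-377 fell within the annotated span of Mirg, chr12:109734981-109749458. The other 23 precursors overlapped no annotated gene other than microRNA genes. All precursors are annotated on the plus strand except miR-299b, which is on the minus strand over miR-299a. For 24 precursors the position is that of the hairpin, and for miR-666 and miR-544 it runs from the first to the last mature base.

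Mature sequences were found in the RefSeq table for 47 of the 50 members and carried 44 different seeds. The 9 members with the highest levels in WT are shown first, because most reads of the cluster came from them; capitals mark the seed, bases 2 to 8 from the 5′ end.
miR-379-5p: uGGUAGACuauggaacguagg
miR-543-3p: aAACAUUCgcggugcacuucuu
miR-411-5p: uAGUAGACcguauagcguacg
miR-495-3p: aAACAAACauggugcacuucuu
miR-134-5p: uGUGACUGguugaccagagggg
miR-382-5p: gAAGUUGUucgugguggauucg
miR-323-3p: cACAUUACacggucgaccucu
miR-494-3p: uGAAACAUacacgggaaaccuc
miR-382-3p: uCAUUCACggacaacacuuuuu
These 9 carried 9 different seeds, although miR-543-3p and miR-495-3p are otherwise nearly the same molecule. They differ at 4 of 22 positions, counted from the 5′ end of miR-543-3p (U6A, U7A, G9A and C10U), and 2 of these lie in the seed.

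Seeds were shared within the cluster by 3 pairs, shown here because they may share targets.
miR-379-5p: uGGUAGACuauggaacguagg
miR-1193-5p: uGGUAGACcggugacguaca
miR-379-3p: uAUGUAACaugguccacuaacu
miR-411-3p: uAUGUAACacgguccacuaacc
miR-299a-3p: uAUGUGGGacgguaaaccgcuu
miR-299b-3p: uAUGUGGGacgguaaacc
miR-379-3p and miR-411-3p differ at 2 of 22 positions, U10C and U22C counted from the 5′ end of miR-379-3p, and miR-299b-3p is the first 18 bases of miR-299a-3p. Nothing states how reads were divided between such pairs, so the separate values of the last 2 pairs are uncertain. A stretch reading ACACGG occurred in 5 of 24 member sequences of the 3p arm (miR-411-3p, miR-323-3p, miR-494-3p, miR-485-3p and miR-154-3p). Except in miR-494-3p, it begins within the seed. It occurred in 0.846% of all 709 mouse 3p microRNAs in the same table. GGUCCAC occurred in 4 of the 24 (miR-379-3p, miR-411-3p, miR-380-3p and miR-758-3p), against 0.705% of the 709. The 709 include the members, so the members themselves make up part of both shares. Both stretches were picked after the sequences had been read, were searched on the microRNA strand only, and are given as a description. They overlap in miR-411-3p, where both share the letters GG.

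Whole embryos with the insertion on the maternal chromosome held about 3% of the normal amount of these microRNAs, whether or not the paternal chromosome also carried it. Insertion on the paternal chromosome alone left 90.2%. In WT the 50 members took 3.39% of all microRNA reads (exact Clopper-Pearson 95% interval 3.38 to 3.40). They took 3.06% in PKI (3.05 to 3.07), 0.1005% in MKI (0.0984 to 0.103) and 0.107% in HOMO (0.105 to 0.110). Their summed level, as rpm (reads per 1000000 reads of the column), was 33891 in WT and 30578 in PKI, against 1005 in MKI and 1073 in HOMO. Against WT, the sum was thus 33.7-fold lower in MKI and 31.6-fold lower in HOMO. The columns hold 8016848 to 10072670 reads, so a single read is worth 0.0993 to 0.125 rpm.

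In a whole embryo, fewer cells that make a microRNA and less of it in each cell cannot be told apart. Gtl2 itself was not analysed here, since the table of long non-coding RNAs was not used. As a check of the labels, miR-770-3p, whose gene lies inside Gtl2 (chr12:109563744-109563765), stood at 194 rpm in WT and 102 in PKI, against 2.89 in MKI and 7.11 in HOMO. Of the mRNA columns, MKI stood apart: 19.1% of 13279 genes were at least 2-fold lower there than in WT, against 0.783% in HOMO. Neuron, liver, red cell and skeletal muscle markers were all measured in every column, as whole embryos should hold them.

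miR-379-5p, the first and most abundant microRNA of the cluster, was at 7654 rpm in WT and 6871 in PKI, against 206.8 in MKI and 257.3 in HOMO. It was the highest member in all 4 columns. Its neighbour miR-411-5p was at 4412, 3573, 109 and 153.4 rpm in the same order. miR-543-3p was as high as miR-411-5p in WT and lay at 4421, 3060, 109 and 121 rpm. Where 4 values follow each other here and below, they stand in that order, with WT first and HOMO last. In each of these the columns with a maternal insertion were far below the others.

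**Figure D1:**
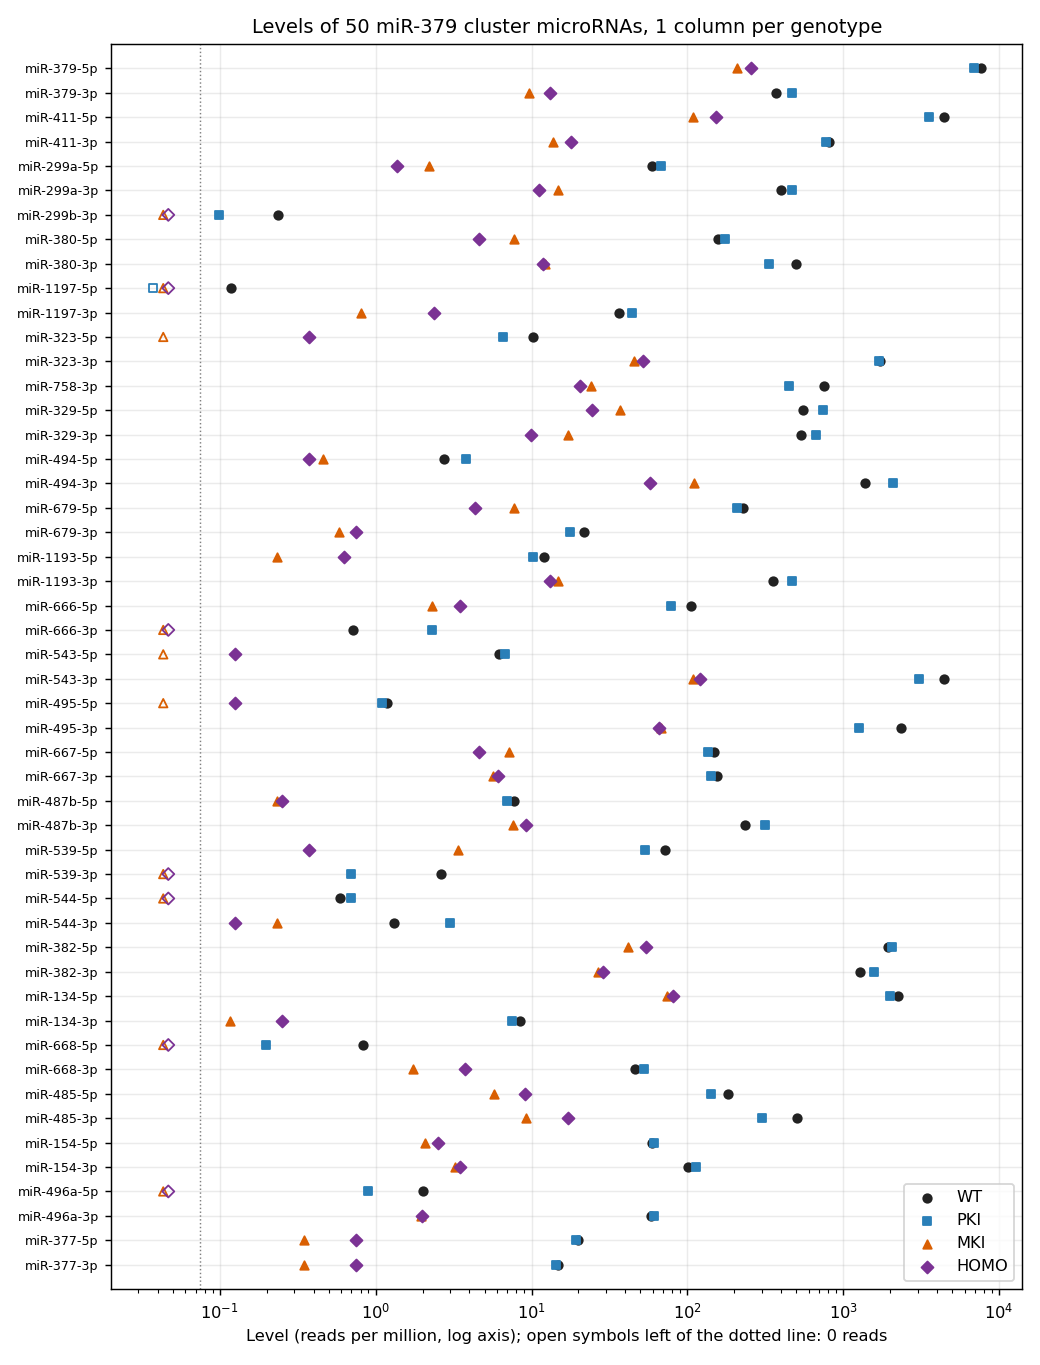
Level of each of the 50 members (rpm, log axis) in WT, PKI, MKI and HOMO, in the order of the cluster; each symbol is the single column of a genotype, and open symbols mark 0 reads. For each of the 36 members that met the minimum level, MKI and HOMO lie to the left of WT and PKI; the gap between MKI and HOMO is widest for miR-539-5p and miR-1197-3p, which have few reads there.

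miR-495-3p was at 2337 rpm in WT and 1268 in PKI, against 67.3 in MKI and 66.2 in HOMO. Its PKI value, 54.3% of WT, was the lowest among the members that passed the filter described below. miR-134-5p, which represses Limk1 at synapses, was at 2229, 1993, 73.7 and 81.1 rpm. miR-382 gave over 1000 rpm in WT from either arm, with more from the 5p arm: miR-382-5p was at 1926, 2040, 41.8 and 53.9 rpm, and miR-382-3p at 1275, 1582, 26.9 and 28.8 rpm. miR-323-3p lay at 1722, 1688, 45.1 and 52.1 rpm. All of these kept between 2% and 4% of the WT level in both maternal columns.

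miR-494-3p had another pattern. It was at 1376 rpm in WT and 2081 in PKI, against 110 in MKI and 57.4 in HOMO, so PKI was the highest column and MKI kept 8.02% of WT (counting interval 7.498 to 8.57). HOMO kept 4.17%, and was at 52.0% of MKI (46.4 to 58.2). It made up 4.06% of all member reads in WT and 6.80% in PKI, against 11.0% in MKI and 5.35% in HOMO. miR-379-5p, by contrast, took 22.6%, 22.5%, 20.6% and 24.0%. The 9 most abundant together took 80.7%, 79.0%, 78.6% and 81.3%, much the same in all columns, while the share of miR-494-3p was not. Shares of other single members moved too. That of miR-382-3p was 3.76%, 5.18%, 2.67% and 2.69%, and that of miR-495-3p 6.89%, 4.15%, 6.69% and 6.18%. Like miR-494-3p, miR-329-5p was highest in PKI and lower in HOMO than in MKI (65.9%).

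The higher arms of middle level, between 100 and 1000 rpm in WT, were low in the same way. miR-758-3p was at 749 rpm in WT and 452 in PKI, against 24.1 in MKI and 20.5 in HOMO. miR-329-5p was at 548, 740, 36.9 and 24.3 rpm, and miR-485-3p at 507, 303, 9.26 and 17.2 rpm. miR-380-3p lay at 500, 335, 12.2 and 11.9 rpm. miR-299a-3p was at 401 rpm in WT and 466 in PKI, against 14.8 in MKI and 11.1 in HOMO, and miR-1193-3p at 352, 469, 14.8 and 13.1 rpm. PKI was above WT for miR-329-5p, miR-299a-3p and miR-1193-3p and below it for the other 3, while both maternal columns were below 40 rpm for all 6.

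Of the remaining higher arms in this range, miR-487b-3p was at 234 rpm in WT and 316 in PKI, against 7.64 in MKI and 9.23 in HOMO. miR-679-5p was at 228, 207, 7.76 and 4.37 rpm, and miR-667-3p at 154.3, 142, 5.67 and 6.11 rpm. miR-666-5p lay at 106, 78.5, 2.32 and 3.49 rpm, and miR-154-3p at 101, 113, 3.24 and 3.49 rpm. In MKI and HOMO all 5 were under 10 rpm, that is, under 100 reads.

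Below 100 rpm in WT, single reads begin to matter. miR-539-5p was at 71.7 rpm in WT, 53.1 in PKI and 3.36 in MKI, but had only 3 reads (0.374 rpm) in HOMO against 29 reads in MKI. Its HOMO value was 0.522% of WT (0.107 to 1.53), the lowest of all higher arms with at least 100 reads in WT. miR-668-3p was at 46.3, 52.5, 1.74 and 3.74 rpm, and its 8.09% of WT in HOMO was the highest. miR-496a-3p (58.2, 60.8, 1.97 and 2.00 rpm), miR-1197-3p (36.4, 44.4, 0.810 and 2.37 rpm) and miR-377-5p (19.7, 19.2, 0.347 and 0.748 rpm) had 19 reads or fewer in each maternal column.

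miR-544-3p had 11, 30, 2 and 1 reads in WT, PKI, MKI and HOMO, and miR-299b-3p had 2, 1, 0 and 0. Nothing can be said of either beyond these counts. Over all 50 members, 10 had no read in MKI and 7 none in HOMO, against 0 in WT and 1 in PKI. A count of 0 in MKI allows a level of up to 0.347 rpm (3 reads). For miR-323-5p, at 10.2 rpm in WT and 6.55 in PKI, against 0 in MKI and 0.374 in HOMO, that floor makes the MKI level at least 29.5-fold lower than the WT value; the counting interval of the ratio, which also covers the error of WT, reaches 4.26% of WT.

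The less abundant arms of the same hairpins followed. miR-411-3p was at 815 rpm in WT and 771 in PKI, against 13.8 in MKI and 17.8 in HOMO, and its near copy miR-379-3p at 372, 469, 9.61 and 13.2 rpm. MKI thus kept 1.69% of miR-411-3p (1.40 to 2.03), the smallest part among the 36 members that met the filter given below, and 2.58% of miR-379-3p (2.05 to 3.21). miR-380-5p, on the other hand, kept 4.92% in MKI (3.79 to 6.29), with 158, 174, 7.76 and 4.62 rpm. miR-485-5p was at 182, 141, 5.79 and 9.11 rpm, and miR-667-5p at 149, 135.7, 7.18 and 4.62 rpm.

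miR-299a-5p (59.7, 67.4, 2.20 and 1.37 rpm) and miR-154-5p (58.9, 61.1, 2.08 and 2.49 rpm) had 20 reads or fewer in each maternal column. miR-679-3p, miR-377-3p and miR-1193-5p lay between 10 and 22 rpm in WT and PKI and under 1 rpm in MKI and HOMO. miR-494-5p had only 23 reads in WT, so its 16.9% in MKI rests on 4 reads and has an interval of 4.25 to 49.5.

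Counted by level, 9 members reached 1000 rpm in WT and 9 in PKI, against 0 in MKI and 0 in HOMO. The 100 rpm mark was reached by 26, 25, 4 and 3 members in WT, PKI, MKI and HOMO. All 50 members had a lower value in MKI than in WT and all 50 a lower value in HOMO. The share of all microRNAs with a lower value was not counted. The counting interval of the ratio lay below 100% for 47 members in each comparison and spanned it for 3. Among members that met the filter below, it lay below 100% for 36 of 36 in each. Of all microRNAs tested by that filter, 44% (MKI) and 28.3% (HOMO) had such an interval. A minimum of 10 rpm in at least 2 columns was met by 36 members and by 505 microRNAs in all. The 14 others stayed out of the 2-fold counts. Of the 36, 18 met it through WT and PKI alone and so had to be low in the maternal columns.

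On the log2(rpm + 0.5) scale, 36 of the 36 were at least 2-fold lower in MKI than in WT, against 17.2% of all microRNAs tested. In HOMO against WT it was again 36 of 36, against 17%. Such shares, here and below, count the members themselves and the other microRNAs of the domain, which were low in MKI and HOMO too. The median difference of the 36 from WT was -4.80 in MKI (range -5.84 to -3.63) and -4.81 in HOMO (-6.37 to -3.46), beside -0.08 and 0.07 over all microRNAs tested. Over the tested microRNAs outside the domain the medians were 0.03 and 0.13. With all 50 members, the low ones included, the medians were -4.52 and -4.56.

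HOMO against PKI compares the maternal insertion in embryos that all carry the paternal one, and shares no column with MKI against WT. There too 36 of 36 were at least 2-fold lower, against 17.4% of all tested, with a median of -4.74. Summed over the 50 members, HOMO held 3.51% of the PKI reads (3.43 to 3.58), and MKI held 2.97% of the WT reads (2.90 to 3.03). MKI against PKI gave 36 of 36 as well, against 17.4%, with a median of -4.69.

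PKI and WT differed much less. Of the 36 members that met the filter, none was 2-fold lower, against 1.58% of all tested, and none 2-fold higher, against 0.792%. With shares that small, 0 among 36 does not set the members apart. Without the filter 1 member was 2-fold lower (miR-539-3p, 22 reads in WT and 7 in PKI). Likewise 1 was 2-fold higher (miR-666-3p, 6 and 23 reads). The log2 differences of the 36 ran from -0.88 for miR-495-3p to 0.60 for miR-494-3p, with a median of -0.04. Of the 50 members, 29 had a lower value in PKI and 21 a higher one. By counting error alone 15 of the 36 were below WT and 13 above it, and the same could be said of 36.6% and 35.6% of all microRNAs tested. The 90.2% of the sum rested on a few members: without miR-379-5p, miR-543-3p and miR-411-5p the sum in PKI was 98.1% of WT.

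HOMO and MKI were the closest pair by sum. HOMO held 107% of the MKI reads (103.6 to 110), 102% without miR-379-5p (98.7 to 105.7), and 93.2% without the 3 most abundant members (89.5 to 97.1). The direction of the sum thus depended on 3 microRNAs. miR-539-5p was 2-fold lower in HOMO, 1 of 36 against 0.594% of all tested, and miR-1197-3p 2-fold higher, 1 of 36 against 3.17%, both on fewer than 30 reads. The median of the 36 was 0.14, beside 0.13 over all microRNAs tested, and was -0.01 with TMM scaling factors.

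Along the cluster the residual level showed no steady slope. The 24 precursors whose higher arm had at least 100 reads in WT kept between 1.76% (miR-377-5p) and 8.02% (miR-494-3p) of WT in MKI, with a median of 3.21%. In HOMO they kept between 0.522% and 8.09%, with a median of 3.41%. Across these 24, Spearman's rho of the percentage with the distance from miR-379 was -0.06 in MKI and 0.18 in HOMO. These are descriptions across microRNAs of the same libraries, which also share the WT column.

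**Figure D2:**
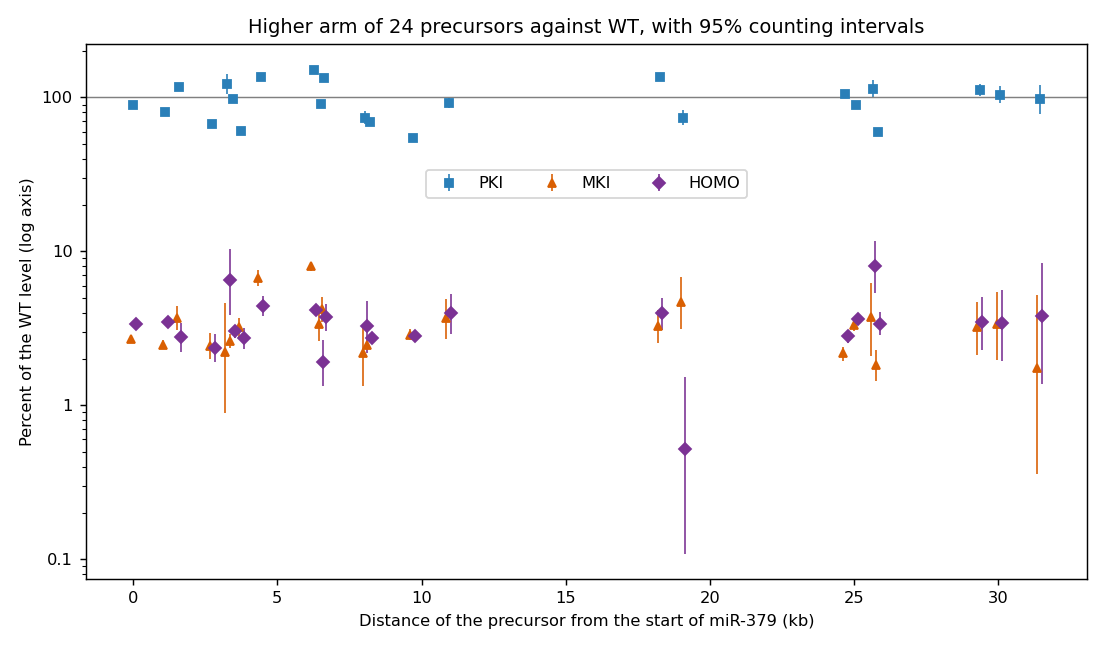
Percent of the WT level (log axis) in PKI, MKI and HOMO for the higher arm of 24 precursors, against the distance of the precursor from the start of miR-379 in kb; bars are 95% counting intervals. PKI values sit between 54.3% and 151%, and MKI and HOMO values between 0.522% and 8.09%, with no slope along the cluster.

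The first 16 precursors, miR-379 to miR-667, together kept 3.04% of their WT reads in MKI (2.97 to 3.12) and 3.16% in HOMO (3.09 to 3.24). The next 7, miR-487b to miR-485, kept 2.63% (2.50 to 2.77) and 3.14% (2.99 to 3.30). The 3 within the Mirg span kept 3.14% (2.43 to 3.99) and 3.73% (2.92 to 4.68). The MKI values of the first and second stretch differed beyond counting error, by less than 1.2 times. This gap leans on miR-494-3p, which kept 8.02% of WT and gave 953 of the 7137 MKI reads of the first stretch. No difference between the stretches should be read from it. The HOMO values of all 3 stretches had overlapping intervals.

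Other microRNAs of the domain were low as well, to slightly different degrees. The 33 rows nearer to Gtl2 together kept 2.18% of WT in MKI (2.14 to 2.22) and 2.98% in HOMO. The other 22 rows of the distal cluster kept 4.10% in MKI (4.03 to 4.17) and 3.24% in HOMO. The members, with 2.97% and 3.16%, lay between these in both columns. Whether such gaps exceed the spread between embryos could not be tested with 1 column per genotype.

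Which members kept more was not shared by the comparisons that have no column in common. Across the 24 higher arms, the percentage kept in MKI of WT and that kept in HOMO of PKI had a Spearman's rho of -0.41. For MKI of PKI against HOMO of WT it was -0.26. The order of levels, on the other hand, was alike in all pairs of columns looked at. Spearman's rho over the 50 members was 0.989 between WT and PKI, 0.974 between MKI and HOMO, 0.980 between WT and MKI and 0.982 between PKI and HOMO. Each such value is dominated by the wide range of levels among members.

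The share of a precursor's reads that comes from its 5p arm depends on neither the level of the precursor nor the scaling of a column. Both arms had rows for 24 precursors. In WT, 9 gave more reads from the 5p arm and 15 from the 3p arm, and 13 gave over 95% from a single arm. miR-134 lay at 99.6% from the 5p arm, miR-379 at 95.4%, miR-329 at 50.4% and miR-495 at 0.0509%.

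**Figure D3:**
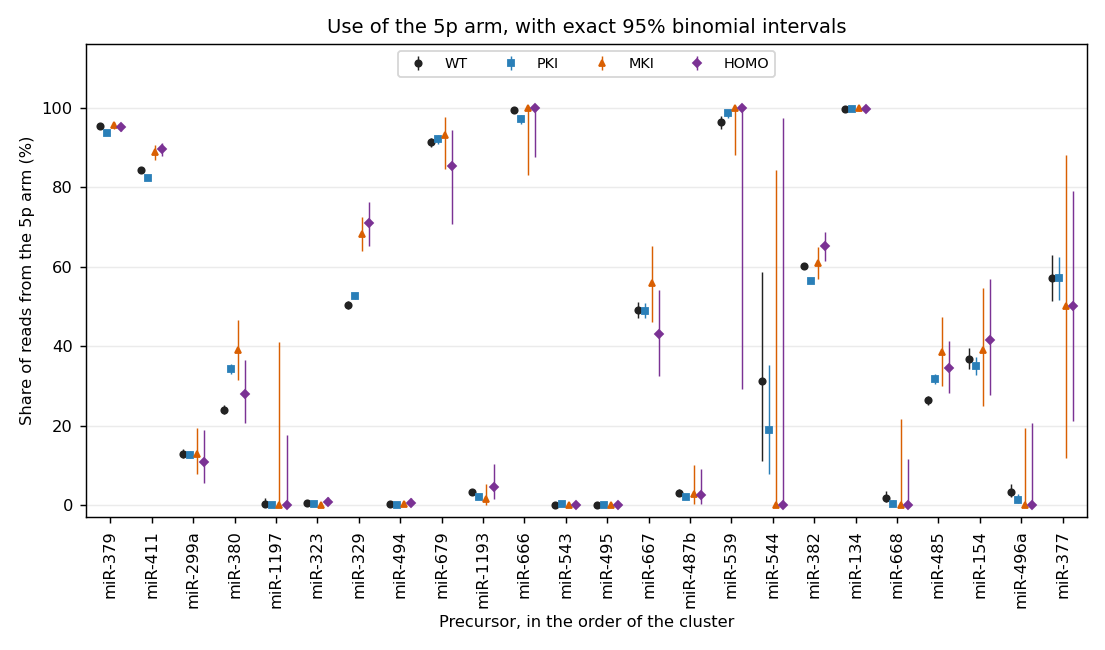
Share of reads from the 5p arm (%) for 24 precursors in WT, PKI, MKI and HOMO, in the order of the cluster; bars are exact 95% binomial intervals. Most precursors lie near 0% or 100% in all columns, and miR-329 lies at 50.4% and 52.7% in WT and PKI but at 68.3% and 70.9% in MKI and HOMO.

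miR-329 stood out by eye. Its 5p share was 50.4% in WT (49.4 to 51.4), 52.7% in PKI (51.8 to 53.5), 68.3% in MKI (63.9 to 72.5) and 70.9% in HOMO (65.2 to 76.2). miR-411 was at 84.4% (84.1 to 84.7), 82.2% (81.9 to 82.6), 88.8% (86.8 to 90.6) and 89.6% (87.8 to 91.2). In both, MKI and HOMO were above WT and PKI. For miR-411 the 3p arm is the one nearly identical to miR-379-3p, and no such near copy was found among the members for miR-329.

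miR-485 was at 26.4%, 31.7%, 38.5% and 34.6% from the 5p arm in WT, PKI, MKI and HOMO, and miR-380 at 24.0%, 34.2%, 39.0% and 28.0%. For these PKI was above WT too. miR-382 was at 60.2%, 56.3%, 60.9% and 65.2%. Intervals of MKI and WT lay apart for 4 precursors of the 24 (miR-329, miR-380, miR-411 and miR-485), against 27.5% of the 320 precursors of the whole table. Intervals of HOMO and WT lay apart for 4 (miR-329, miR-382, miR-411 and miR-485), against 23.8%, and those of PKI and WT for 8, against 32.2%. Differences in arm use between columns were thus about as common in the cluster as elsewhere, or less common, and in MKI and HOMO its members had fewer reads to show them.

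A microRNA outside the cluster with the same seed may bind many of the same messenger RNAs. Among the 44 member seeds, 2 were also carried by a microRNA from outside the domain that met the 10 rpm minimum; both partners lie on chromosome X. The pairs are shown because the other members with a sequence had no such partner by bases 2 to 8.
miR-329-3p: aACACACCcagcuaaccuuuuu
miR-362-3p: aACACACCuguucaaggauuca
miR-377-5p: aGAGGUUGcccuuggugaauuc
miR-672-5p: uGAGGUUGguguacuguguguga
miR-362-3p lies at chrX:7241984-7242005 and miR-672-5p at chrX:104116228-104116250.

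miR-329-3p was at 539.5 rpm in WT and 665.2 in PKI, against 17.1 in MKI and 9.98 in HOMO. miR-362-3p was at 53.8, 80.8, 68.6 and 74.5 rpm. The 2 together came to 593, 746, 85.8 and 84.4 rpm, of which miR-329-3p made up 90.9%, 89.2%, 20.0% and 11.8%. Most reads of the 2 were therefore from the cluster in WT and PKI and from chromosome X in MKI and HOMO.

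For the seed of miR-377-5p the balance was the reverse. miR-672-5p was at 157, 140, 137.99 and 160 rpm, and the pair at 177, 159, 138.3 and 160 rpm. miR-377-5p made up 11.2% of the pair in WT and 12.05% in PKI, against 0.251% in MKI and 0.467% in HOMO. The pool with this seed was as large in HOMO as in PKI.

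**Figure D4:**
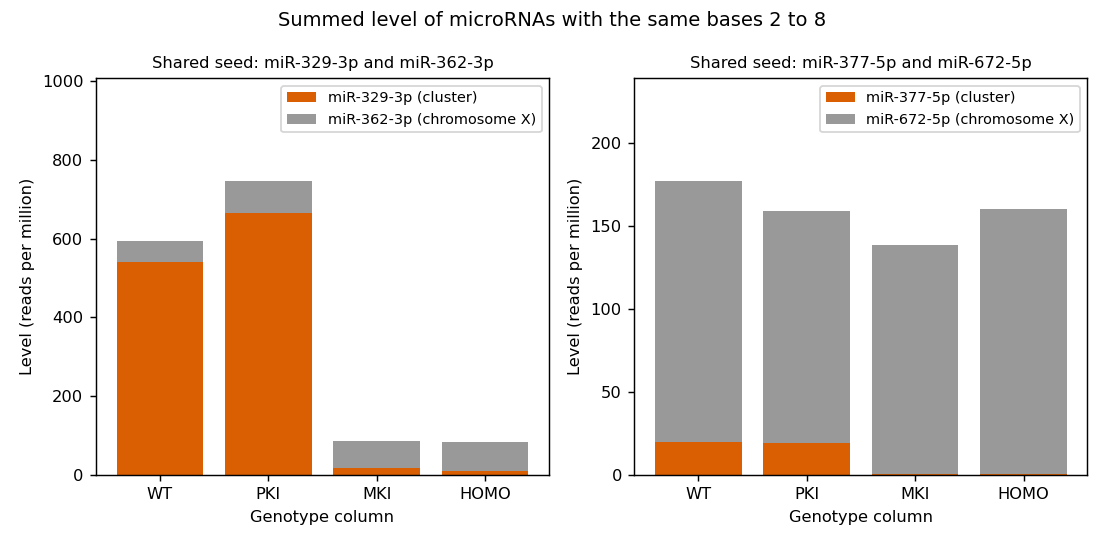
Summed level (rpm) of miR-329-3p with miR-362-3p (left) and of miR-377-5p with miR-672-5p (right) in WT, PKI, MKI and HOMO; orange is the cluster member and grey the microRNA from chromosome X. The left pool is 593 rpm in WT and 84.4 rpm in HOMO, and the right pool 177 and 160 rpm.

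Inside the domain, miR-494-5p shared its seed with miR-410-5p and miR-1193-3p with miR-370-5p. Both partners were low in the same columns. miR-410-5p was at 37.9 rpm in WT and 52.3 in PKI, against 0.695 in MKI and 1.12 in HOMO, and miR-370-5p at 76.9, 88.2, 5.21 and 1.75 rpm.

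Other microRNAs of neural tissue did not have low rpm values in MKI and HOMO. In all, 17 rows of miR-9, miR-124, miR-128, miR-137, miR-138, miR-153 and miR-218, which are typical of neurons and their progenitors, summed to 53890 rpm in WT and 47480 in PKI, against 55416 in MKI and 56526 in HOMO. miR-9-5p alone was at 39090, 37132, 42062 and 41432 rpm. miR-124-3p, the classic microRNA of mature neurons, was at 37.0, 41.8, 36.5 and 56.5 rpm. The sum of the 17 rows in MKI was 103% of WT, and that of the miR-379 cluster members 2.97%. Most of the former was miR-9-5p. MicroRNAs of the domain took 13.7% of reads in WT, against 0.408% in MKI and 0.426% in HOMO. Their fall by itself raises the rpm of all other microRNAs. Over tested microRNAs outside the domain, the median log2 difference from WT was 0.03 in MKI and 0.13 in HOMO. With scaling to reads outside the domain it was -0.17 and -0.07. The sum of the 17 rows was not rescaled in this way, so whether it was above or below WT cannot be read from its rpm. The part of neural cell numbers in the levels of the cluster was not tested.

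Among 10 neuron markers in the mRNA table, the summed level was 558 FPKM in WT and 360 in PKI, against 478 in MKI and 477 in HOMO. FPKM scales fragments to transcript length and to the depth of the column. All 10 had lower values than WT in PKI and all 10 in HOMO, and 5 of 10 in MKI. The share of all genes tested with a lower value was not counted, but their median was below WT in each column. For PKI the markers had a median log2 difference of -0.63, beside -0.07 over all genes tested. The HOMO median was -0.28 beside -0.06, and that of MKI 0.11 beside -0.11. At least 2-fold lower were 2 in PKI (1.45% of all genes tested were), 0 in HOMO (0.783%) and 1 in MKI (19.1%). Tubb3, a neuronal tubulin, was at 183 FPKM in WT and 121 in PKI, against 41.4 in MKI and 170 in HOMO, and Stmn2 at 74.8, 52.8, 94.5 and 62.3 FPKM. The part of these differences in the levels of the cluster was not tested.

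The 5 liver markers summed to 629, 222, 1151 and 804 FPKM, and in PKI all 5 were at least 2-fold below WT, against 1.45% of all genes tested. The 5 red cell markers summed to 2787, 4198, 2972 and 6747 FPKM, mostly from the embryonic globin gene Hbb-y (2334, 3798, 2237 and 5619 FPKM). In PKI 4 of these 5 were below WT all the same, with a median log2 difference of -0.39 beside -0.07 over all genes tested. At least 2-fold lower were 1 in PKI (1.45% of all genes tested were) and 1 in MKI (19.1%). In HOMO 2 of the 5 were at least 2-fold higher, against 0.67% of all genes tested. The 5 skeletal muscle markers summed to 196, 165, 163 and 216 FPKM. In MKI 4 of them were below WT, with a median of -0.79 beside -0.11 over all genes tested. At least 2-fold lower were 2 in MKI (19.1% of all genes tested were), 1 in PKI (1.45%) and 0 in HOMO (0.783%). The part of such shifts in the smaller differences between PKI and WT members was not tested.

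The machinery that makes and uses microRNAs was close to WT in most columns. Of 16 genes measured, none was 2-fold lower in PKI (1.45% of all genes tested were) and none in HOMO (0.783%), while 1 was in MKI (19.1%). None was 2-fold higher in any of the 3 (0.7% in PKI, 1.22% in MKI and 0.67% in HOMO). Median log2 differences from WT were -0.21, -0.03 and -0.05 in PKI, MKI and HOMO, beside -0.07, -0.11 and -0.06 over all genes tested. The gene lower in MKI was Tarbp2, a partner of Dicer1, at 22.4 FPKM in WT and 22.5 in PKI, against 8.02 in MKI and 21.6 in HOMO.

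Drosha, which cuts the hairpin out of the primary transcript, was at 35.4, 30.0, 41.5 and 36.0 FPKM, and its partner Dgcr8 at 19.4, 18.1, 19.7 and 15.5. Dicer1 was at 28.0, 21.9, 37.6 and 28.6 FPKM. Ago2, the Argonaute that can cut its target, was at 22.6, 16.5, 20.0 and 24.7 FPKM. Among these 4, the HOMO value was within 1.3 times of WT. The part of these genes in the levels of the cluster was not tested. The other 11 genes (Xpo5, Ran, Prkra, Ago1, Ago3, Ago4, Tnrc6a, Tnrc6b, Tnrc6c, Ddx5 and Ddx17) lay between -0.69 and 0.62 on the log2 scale in all 3 comparisons with WT.

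**Figure D5:**
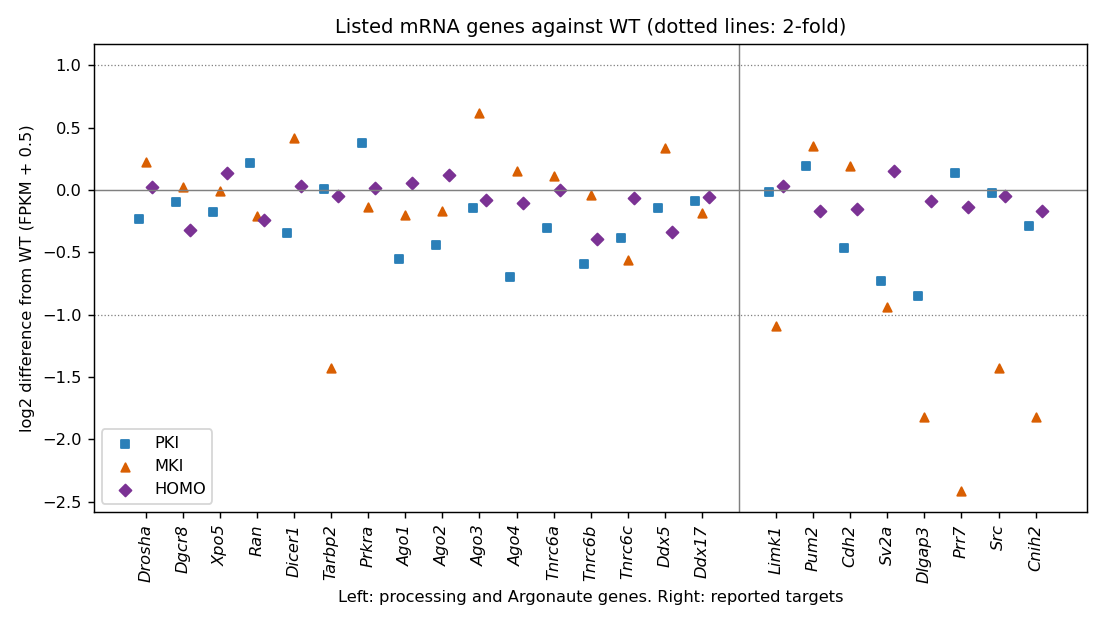
Difference from WT on the log2(FPKM + 0.5) scale in PKI, MKI and HOMO for 16 processing and Argonaute genes (left) and 8 reported targets (right); each symbol is the single column of a genotype and dotted lines mark 2-fold. HOMO values stay between -0.40 and 0.15, and MKI values reach -2.41.

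The mRNA table allowed a look at 8 genes reported as targets of cluster members in neurons. A microRNA usually lowers its targets, so a target could stand higher where the microRNA is missing. None of the 8 was 2-fold higher than WT in any column. Only 0.7% (PKI), 1.22% (MKI) and 0.67% (HOMO) of all genes tested were, so 0 among 8 genes cannot decide whether targets rose. In HOMO none was 2-fold lower either (0.783% of all genes tested were). The log2 differences there ran from -0.17 to 0.15 with a median of -0.11, beside -0.06 over all genes. In MKI 5 of 8 were 2-fold lower, in the column where 19.1% of all genes were, with a median of -1.26 beside -0.11. No test between columns was possible.

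Limk1, a kinase of the actin cytoskeleton and the known spine target of miR-134, was at 11.7 FPKM in WT and 11.6 in PKI, against 5.24 in MKI and 12.03 in HOMO. Pum2, a repressor of translation that miR-134 also targets, was at 59.4, 67.9, 75.9 and 52.7 FPKM. Cdh2 (N-cadherin) was at 28.8, 20.7, 32.9 and 25.9 FPKM. Limk1 was low only in the MKI column, and Pum2 and Cdh2 were highest there. Sv2a, a synaptic vesicle protein targeted by miR-485, was at 6.12, 3.49, 2.95 and 6.86 FPKM.

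The last 4 encode proteins of the excitatory synapse or its signalling. Dlgap3, a scaffold, was at 2.37 FPKM in WT and 1.09 in PKI, against 0.313 in MKI and 2.21 in HOMO. Prr7 was at 3.01, 3.37, 0.160 and 2.69 FPKM, the kinase Src at 23.0, 22.6, 8.20 and 22.2, and Cnih2, an AMPA receptor partner, at 21.8, 17.8, 5.83 and 19.4. All 4 were lowest in MKI and close to WT in HOMO. Mef2a, Mef2c and Mef2d, of the factors that drive the cluster in active neurons, were at 12.4, 15.5 and 10.4 FPKM in WT and at 11.0, 10.1 and 11.5 in HOMO, and none passed 2-fold against WT in any column.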

How the data were processed

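Whole mouse embryos of 4 genotypes were profiled, and the members and gene lists were chosen with earlier results of these data known. The microRNA values deposited by the authors are RPM: columns share 1 total, and 100% of entries came out as whole reads within 0.02 read, so reads were recovered (8016848 to 10072670 per column). The mRNA values deposited by the authors were taken as FPKM, since StringTie 1.3.4d is named in the submitters' processing notes and the header gives no unit. The notes also name cutadapt 1.9, HISAT2 2.0.4, DESeq2, edgeR and GRCm38. Per the labels' protocols, mRNA was selected with oligo(dT); the sources used here give no small RNA library protocol. The long non-coding RNA table was not used.

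The design fixed limma for a column per library; with 1 column per genotype it could not be fitted. Log2 differences were taken after adding 0.5 to each value, so low features show too small a fold, for features at 10 RPM (505 of 2395) or 1 FPKM (13279 genes) in at least 2 columns. Ratios of reads have exact conditional 95% intervals, and shares exact Clopper-Pearson ones; both cover counting error only, since reads without molecular identifiers are not independent molecules. A level of 0 was given a floor of 3 reads. Interval methods were tested on simulated data. For each precursor the arm with more reads over the 4 columns was named with its values; of genes, every one on the processing and target lists, and up to 2 examples per marker list; neighbours sharing a seed and flagged single members follow the same values. Mature sequences and positions are from RefSeq, GRCm38.p6. Python 3.11.15 with scipy 1.17.1, and edgeR 4.0.16 in R 4.3.3 for TMM factors, were used. Alternatives were other pseudocounts (0.1 and 1), filters (none and 100 RPM), quantile and TMM scaling, scaling to reads outside the domain, and an exact binomial test of recovered reads with Benjamini-Hochberg adjustment.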

Additional observations from a re-analysis of the deposited data

Results flagged for a closer look

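The paternal insertion can be compared on 2 maternal backgrounds: PKI against WT, and HOMO against MKI. For 2 members these went in opposite directions by over 1.5 times, with counting intervals on opposite sides of 100%. miR-494-3p was at 151% of WT in PKI but at 52.0% of MKI in HOMO. miR-485-3p was at 59.7% of WT in PKI and at 186% of MKI in HOMO. With 1 column per genotype the difference between the 2 effects was not tested. Among all 505 microRNAs tested 16 (3.17%) met the same rule, and opposite intervals without the 1.5-fold limit were met by 11 of the 36 members (30.6%) and 168 of 505 (33.3%).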

How the results depend on the processing

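No paired analysis was possible because each table has 1 column per genotype with no replicate number; for the same reason limma, a replicate block and leaving out replicates were not run. Under every alternative tried, the members that passed the filter had medians at least 3.66 (log2) below WT or PKI in both maternal columns. Quantile scaling moved those medians to -3.91 (MKI against WT), -4.10 (HOMO against WT), -4.09 (HOMO against PKI) and -3.66 (MKI against PKI), and the median of all microRNAs from -0.08 to 0.53 in MKI and from 0.07 to 0.57 in HOMO. Without a filter the HOMO against PKI median was -4.39, over more rows with few reads.

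The number of all microRNAs past 2-fold depended on the settings. PKI against WT gave 12, and 105 without a filter, 4 at 100 RPM, 31 with quantile scaling and 363 with the binomial test at an adjusted p under 0.05, which reads counting error only. MKI against WT gave 100, and 245, 66, 194 and 392. HOMO against WT gave 97, and 264, 60, 164 and 365. HOMO against PKI gave 112, and 267, 67, 186 and 391. MKI against PKI gave 96, and 248 without a filter, 196 with quantile scaling and 386 with the binomial test. HOMO against MKI gave 19, and 164 without a filter, 4 at 100 RPM and 325 with the binomial test. With quantile scaling the calls over all microRNAs turned from mostly lower to mostly higher: from 87 lower and 13 higher to 79 and 115 in MKI against WT, from 86 and 11 to 79 and 85 in HOMO against WT, from 88 and 24 to 80 and 106 in HOMO against PKI, and from 88 and 8 to 79 and 117 in MKI against PKI. HOMO against PKI gave 91 and 11 when scaled to reads outside the domain. HOMO against MKI gave 3 and 16, and 7 and 11 with TMM, or 4 and 10 with quantile scaling.

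Of the members, PKI against WT gave 1 lower and 1 higher call without a filter. HOMO against MKI gave 3 higher calls with a pseudocount of 0.1, and 0 with a pseudocount of 1, at 100 RPM or with quantile scaling. It gave 0 lower calls at 100 RPM, and 2 with quantile or TMM scaling. With bases 2 to 7 as the seed, 5 member seeds had a tested partner outside the domain rather than 2. Quantile scaling gave 2 processing genes past 2-fold in MKI, and a pseudocount of 0.1 gave 1 target in PKI. The cause of these shifts was not tested. Members with few reads in MKI and HOMO, such as miR-377-5p and miR-539-5p, are limited by depth.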
